A study of Homo sapiens with 12 samples.

Results

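Depletion of TAF5 by RNA interference was compared with a non-targeting siRNA in HEK293 Flp-In cells. HEK293 is a line of human embryonic kidney origin, and Flp-In derivatives hold a genomic site for inserting a transgene. The comparison used 6 of the 12 libraries of the series, chosen by their titles: 3 labelled siTAF5, which received 1 siRNA against TAF5, and 3 labelled siNT, which received the non-targeting siRNA. All 6 carry the same treatment label, siRNA followed by doxycycline, with 24 h between transfection and doxycycline and 48 h of doxycycline before harvest, so a response to doxycycline would be shared by both groups. The labels name no transgene in these 2 groups, do not say which Flp-In line they were, and do not say whether the 3 libraries of a group came from separate cultures, so p-values measure the spread between these libraries, which may be technical. The other 6 libraries, with TAF5 transgenes, entered the statistical model for its estimate of that spread. They also entered the filter on low counts, the scaling and the average level of each gene. With the 6 compared libraries alone, 18698 genes were tested in place of 19424. One siRNA was used, so effects of its sequence and effects of losing TAF5 cannot be told apart.

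TFIID is the general transcription factor that recognises core promoters of RNA polymerase II genes. It consists of the TATA-binding protein TBP and a set of TBP-associated factors (TAFs), and it recruits the other general factors and the polymerase to the transcription start. TAF5 is one of the TAFs of the TFIID core, with a WD40 repeat domain that holds the histone-fold TAFs TAF6 and TAF9, while its paralog TAF5L fills the corresponding place in the SAGA coactivator complex.

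Levels are given as CPM, estimated read counts per 1 M after scaling of the libraries, and log2 changes are siTAF5 over siNT with the SE of the fit. TAF5 stood at 6.131, 7.354 and 6.685 CPM in the siTAF5 libraries, against 39.17, 40.5 and 40.21 CPM in the siNT libraries. The groups lay far apart, with a 5.92-fold lower level in siTAF5 (log2 change -2.56, SE 0.047, edgeR quasi-likelihood adjusted p = 2.09e-18). TAF5 lies at chr10:103367966-103389065 on the plus strand (hg38). TAF5L was at 72.96, 73.17 and 74.09 CPM in siTAF5, against 75.58, 76.9 and 77 CPM in siNT. Its change did not pass the test (log2 -0.06, edgeR adjusted p = 0.0733).

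The libraries held 46.37, 55.74 and 55.93 M estimated counts in siTAF5 and 54.77, 60.67 and 61.83 M in siNT. Replicates differed by more than counting error, with a chi-square per degree of freedom of 2.61 to 2.69 between siTAF5 libraries and 2.99 to 5.16 between siNT libraries. Of the normalised counts, 1.27% to 1.47% lay in different genes between any 2 siTAF5 libraries and 1.33% to 2.02% between any 2 siNT libraries, while 5.82% to 6.52% did so between a siTAF5 and a siNT library. All 6 markers fixed for the HEK293 line, among them the neurofilament genes, were present, at a summed level of 484 to 507 CPM in siTAF5 and 530 to 540 CPM in siNT. Summed fibroblast markers were at 10.5 to 11.3 CPM in siTAF5 and 17.1 to 17.6 CPM in siNT, with COL1A2 and DCN under 0.1 CPM in all 6 libraries. Blood cell markers summed to 6.04 to 7.3 CPM in siTAF5 and 9.24 to 10.1 CPM in siNT, with 5 of 6 under 0.1 CPM. Keratin-rich epithelial markers summed to 2.6 to 3.6 CPM in siTAF5 and 3.02 to 3.32 CPM in siNT, with KRT5, KRT14, KRT4 and KRT6A under 0.1 CPM. Hepatocyte markers summed to under 0.2 CPM in both groups.

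The response was broad and mostly small. Of 19424 genes tested, 4802 were higher (24.7%) and 4848 lower (25%) in siTAF5 at an adjusted p under 0.05. The 3 siTAF5 values and the 3 siNT values did not overlap for 57.3% of genes. With a change of at least 1.5-fold in addition, 879 genes (4.53%) were higher and 768 (3.95%) lower. At least 2-fold changes numbered 323 higher and 197 lower, and at least 3-fold changes 70 and 27. The median log2 change of the called genes was 0.27 for those higher and -0.27 for those lower. Bulk RNA from a whole culture was measured with no spike-in, so a level here is a share of the RNA in the library, and fewer cells that contain a transcript cannot be told apart from less of it per cell.

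**Figure D1:**
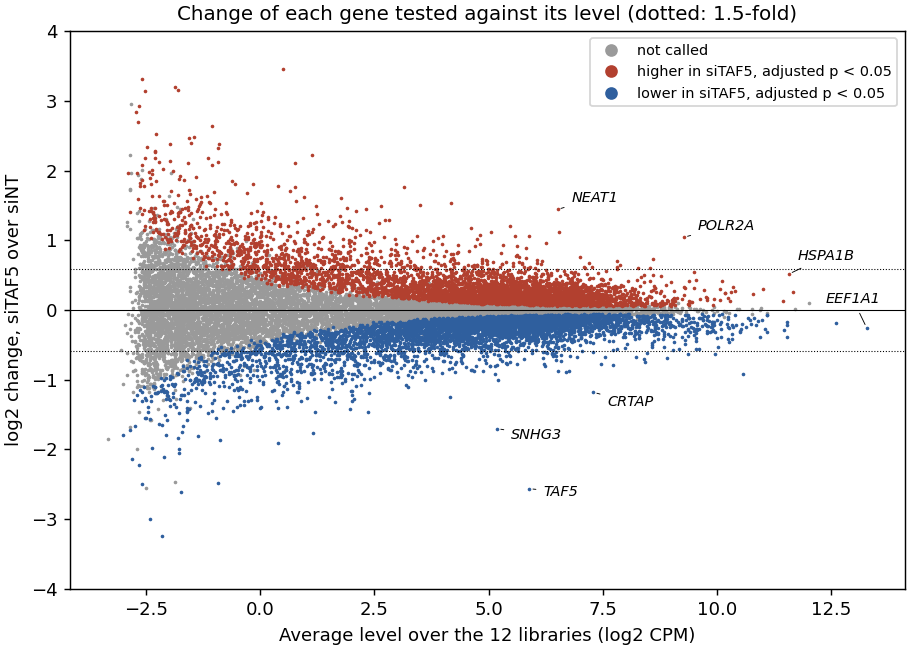
log2 change of each tested gene (vertical axis, siTAF5 over siNT) against its average level over the 12 libraries (horizontal axis, log2 CPM), with genes higher in siTAF5 in red, lower in blue and not called in grey. Red and blue points lie on both sides of 0 at all levels, most within the dotted 1.5-fold lines, and TAF5, SNHG3 and CRTAP lie below and NEAT1 and POLR2A above them. In addition, 5 genes lie outside the plotted range.

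The largest changes were ranked among called genes whose groups did not overlap, so separate groups in those genes follow from the choice. Among the 24 genes with the largest falls on the log2 scale, CRTAP had the highest level. It encodes a cartilage-associated protein of the complex that hydroxylates proline in collagen. CRTAP was at 110.2, 113.5 and 108 CPM in siTAF5, against 260.6, 245.5 and 246.2 CPM in siNT, a 2.27-fold lower level (log2 -1.18, SE 0.032, edgeR adjusted p = 1.17e-15). XIST, the noncoding RNA that coats an inactive X chromosome, averaged 1224 ± 39.5 CPM in siTAF5 and 2304 ± 156 CPM in siNT (SD, n = 3 each), a log2 change of -0.91. SNRPA1, a protein of the U2 small nuclear ribonucleoprotein, was at 81.35, 81.44 and 77.69 CPM in siTAF5, against 148.7, 148.5 and 150.3 CPM in siNT. Its groups did not overlap, and the level was 1.86-fold lower (log2 -0.90, SE 0.029). ANXA1, a calcium-dependent membrane-binding annexin, was at 5.62, 5.296 and 5.088 CPM in siTAF5, against 10.36, 11.77 and 11.63 CPM in siNT. The postsynaptic scaffold gene DLG4, the membrane-bending endocytic gene PACSIN1, the kinase gene LMTK3 and the lysosomal thiol reductase IFI30 fell between 1.94- and 2.12-fold.

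Among genes that rose, PSKH1 and UROS are protein-coding genes at moderate levels. PSKH1, a serine kinase gene (chr16:67893254-67929676), was at 55.82, 57.13 and 55.13 CPM in siTAF5, against 25.13, 23.65 and 23.82 CPM in siNT. This was a 2.32-fold rise (log2 1.21, SE 0.034, edgeR adjusted p = 2.09e-15). UROS, an enzyme of haem synthesis, was at 78.6, 75.11 and 76.07 CPM in siTAF5, against 37.15, 34.91 and 38.05 CPM in siNT, a 2.09-fold rise. In absolute terms the heat shock gene HSPA1B rose most, at 3599, 3572 and 3603 CPM in siTAF5, against 2512, 2488 and 2532 CPM in siNT. HSPA1B and HSPA1A are near-identical copies, and the counting could have split their reads. SOX4, a transcription factor of progenitor cells, was at 566.7, 572.3 and 567.9 CPM in siTAF5, against 357.4, 333.1 and 335.2 CPM in siNT. BRD2, a reader of acetylated histones, rose 1.33-fold, the imprinted retrotransposon-derived gene PEG10 1.46-fold and the chromatin protein prothymosin gene PTMA 1.23-fold.

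**Figure D2:**
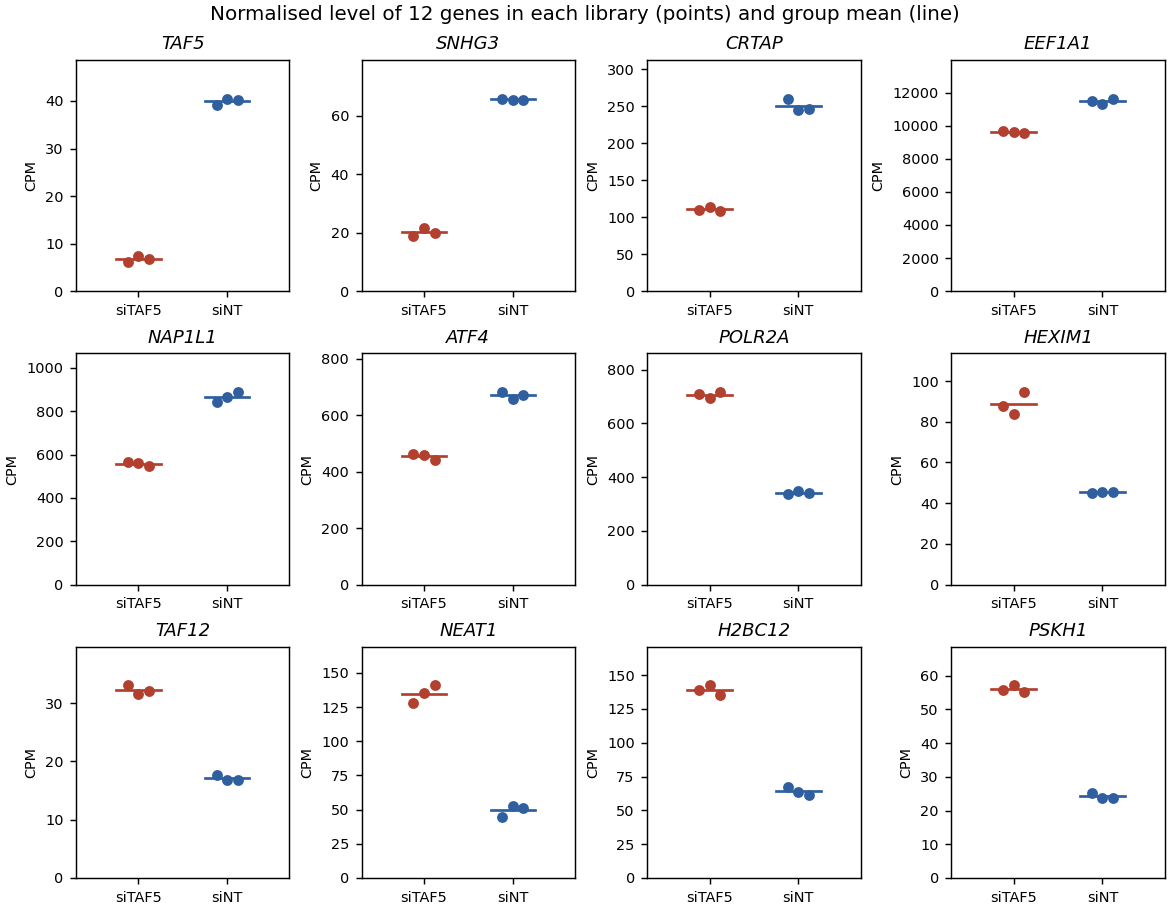
Normalised level (CPM, each axis starting at 0) of 12 genes in the 3 siTAF5 libraries (red, left) and the 3 siNT libraries (blue, right), with a line at each group mean. In all 12 panels the points of the groups do not overlap. TAF5, SNHG3, CRTAP, EEF1A1, NAP1L1 and ATF4 are lower in siTAF5, and POLR2A, HEXIM1, TAF12, NEAT1, H2BC12 and PSKH1 higher.

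Genes with a TATA box moved in both directions. The TATA box is the core promoter element bound by TBP, and its shortest common form, TATAAA, was searched at 40 to 20 bases before the annotated start, on the strand of the gene, in RefSeq promoter sequences (GRCh38.p14) of 12597 tested genes. The element was in 232 promoters (1.84%), of which 67 genes were higher and 54 lower, beside 27.7% higher and 28.9% lower over all 12597. The 22 replication-dependent histone genes among them gave 16 higher and 0 lower, with a median log2 change of 0.88. Without the histone genes, 210 genes remained, 51 higher and 54 lower, with a median of -0.02, close to the -0.01 of all promoters. By at least 1.5-fold, 10 of the 210 (4.76%) were higher and 16 (7.62%) lower, beside 3.26% and 3.75% over all 12597. These shares were not tested. Stretches from 60 bases before to 30 bases after the start are shown for 3 genes with the element that rose and 3 that fell, chosen after their values were seen, with TATAAA in capitals. HEXIM1 (chr17:45148415-45148504, plus strand), H2BC12 (chr6:27146829-27146918, minus strand) and DHRS2 (chr14:23630055-23630144, plus strand) rose. ANXA1 (chr9:73151805-73151894, plus strand), CGA (chr6:87095077-87095166, minus strand) and ATF4 (chr22:39520499-39520588, plus strand) fell.
HEXIM1: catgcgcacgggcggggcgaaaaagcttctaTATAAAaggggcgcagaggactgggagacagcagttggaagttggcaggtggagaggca
H2BC12: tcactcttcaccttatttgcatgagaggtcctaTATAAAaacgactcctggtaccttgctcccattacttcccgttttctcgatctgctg
DHRS2: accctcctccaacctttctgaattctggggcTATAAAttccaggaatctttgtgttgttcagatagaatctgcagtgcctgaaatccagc
ANXA1: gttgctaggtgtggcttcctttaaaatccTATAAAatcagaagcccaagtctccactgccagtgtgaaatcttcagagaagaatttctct
CGA: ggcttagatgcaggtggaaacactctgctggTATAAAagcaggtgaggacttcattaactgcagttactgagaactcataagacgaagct
ATF4: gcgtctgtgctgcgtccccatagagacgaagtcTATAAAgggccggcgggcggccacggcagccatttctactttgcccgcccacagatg

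These 6 genes had the element between 31 and 27 bases before the start. DHRS2, a short-chain dehydrogenase gene, was at 13.24, 14.32 and 13.25 CPM in siTAF5, against 4.765, 4.827 and 4.79 CPM in siNT. CGA, the common alpha subunit of glycoprotein hormones, was at 1.597, 1.953 and 1.719 CPM in siTAF5, against 4.453, 3.802 and 4.057 CPM in siNT. DHRS2 thus rose and CGA fell.

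Within TFIID itself, 8 of the 15 other subunits rose and 1 fell, with a median log2 change of 0.08, beside 24.7% higher and 25% lower over all genes. TAF12, a histone-fold TAF shared with SAGA, was the only one past 1.5-fold, at 33.04, 31.6 and 32.09 CPM in siTAF5, against 17.66, 16.84 and 16.78 CPM in siNT. Of the direct neighbours of TAF5 in the complex, TAF6 was at 114, 114.9 and 117.7 CPM in siTAF5, against 105, 101.7 and 98.67 CPM in siNT. TAF9 did not pass the test, at 54.05, 53.5 and 53.88 CPM in siTAF5, against 50.74, 52.94 and 53.51 CPM in siNT. TAF8, which pairs with TAF10, was the subunit that fell, at 40.17, 41.03 and 41.02 CPM in siTAF5, against 51.22, 55.31 and 52.22 CPM in siNT. TAF8 was lower in 3 of 3 siTAF5 libraries than in any siNT library. The call of TAF2, the weakest of the 8 (edgeR adjusted p = 0.0459), did not hold with DESeq2 (adjusted p = 0.0689) or without siTAF5 replicate 1 (edgeR adjusted p = 0.238). Of 7 tested paralogs of TFIID subunits, TAF9B and TAF15 rose and none fell, and with upper-quartile scaling 3 were lower.

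Genes that control elongation by RNA polymerase II gave 11 higher (34.4%) and 5 lower (15.6%) of 32, beside 24.7% and 25% over all genes. The kinase P-TEFb releases paused polymerase and is held inactive in a particle with 7SK RNA, HEXIM1, MEPCE and LARP7. HEXIM1, the inhibitor in that particle (chr17:45148475-45152099), was at 87.61, 84.03 and 94.62 CPM in siTAF5, against 45.06, 45.69 and 45.65 CPM in siNT. This was a 1.95-fold rise with no overlap (log2 0.96, SE 0.038, edgeR adjusted p = 1.61e-13). MEPCE, which caps 7SK RNA, was at 123.1, 117.3 and 119.6 CPM in siTAF5, against 95.42, 92.37 and 91.96 CPM in siNT, and also rose. LARP7, which binds the end of 7SK RNA, went the other way, at 36.47, 35.56 and 34.48 CPM in siTAF5, against 44.93, 49.13 and 49.08 CPM in siNT. Among the 8 P-TEFb genes 4 were higher and 1 lower. The elongation factor genes SUPT5H and SUPT6H rose 1.32- and 1.21-fold. POLR2A, the largest subunit of the polymerase, was at 709.5, 694.3 and 717.1 CPM in siTAF5, against 338, 348.1 and 341.4 CPM in siNT.

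Integrator, the complex that cleaves nascent RNA and ends transcription of small nuclear and paused genes, had 9 of 15 subunits higher and 3 lower, median log2 0.11. INTS5 was at 36.64, 36.21 and 38.67 CPM in siTAF5, against 26.38, 25.64 and 24.42 CPM in siNT, and INTS6 at 46.37, 45.64 and 45.49 CPM in siTAF5, against 32.47, 33.85 and 34.07 CPM in siNT. INTS13 fell, at 58.95, 60.38 and 61.69 CPM in siTAF5, against 86.42, 85.21 and 87.68 CPM in siNT. The subunits thus moved in both directions without overlap between the groups for these 3. RNA polymerase I and III genes were split, 14 higher (34.1%) and 18 lower (43.9%) of 41, beside 24.7% and 25% over all genes. TAF1D, a TBP-associated factor of polymerase I and not of TFIID, was at 32.83, 32.2 and 34.02 CPM in siTAF5, against 51.63, 55.62 and 60.45 CPM in siNT. The polymerase III factor GTF3A, which binds 5S RNA genes, fell 1.32-fold, and POLR1C, a subunit shared by polymerases I and III, rose 1.31-fold. Of the 5 subunits of the complex that activates small nuclear RNA genes, 4 fell and none rose.

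Histone transcripts outside the replication-dependent clusters were also higher, 9 of 12 variants against 1 lower, with the calls of H1-10 and H2AJ lost under DESeq2. H3-3B was at 494.6, 486.4 and 494.1 CPM in siTAF5, against 383.6, 384.2 and 378.1 CPM in siNT. H3-3A, which encodes the same H3.3 protein, was at 724, 719.2 and 706 CPM in siTAF5, against 580.3, 570.1 and 563.6 CPM in siNT. The centromeric variant CENPA was the one that fell, at 13.16, 13.93 and 13.76 CPM in siTAF5, against 15.97, 16.5 and 15.15 CPM in siNT. Of 39 replication-dependent histone genes with a promoter sequence, 27 rose and 0 fell, median log2 0.84. These transcripts end without a poly(A) tail in dividing cells, and the libraries were made from poly(A) RNA, so the libraries hold their polyadenylated share. Among 11 genes that process histone pre-mRNA, 5 rose (45.5%) and 2 fell (18.2%), beside 24.7% and 25% over all genes. The stem-loop binding protein SLBP did not pass, at 120.3, 118.4 and 120.4 CPM in siTAF5, against 121.7, 121.1 and 121.6 CPM in siNT. NPAT, the coactivator of histone genes, rose, at 32.93, 34.01 and 33.63 CPM in siTAF5, against 27.01, 29.04 and 28.48 CPM in siNT.

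Target genes of p53, the DNA damage response factor, gave 23 higher and 2 lower of 33, median log2 0.29. CDKN1A, an inhibitor of cyclin-dependent kinases, was at 139.1, 135.2 and 132.7 CPM in siTAF5, against 96.34, 90.27 and 92.17 CPM in siNT, 1.46-fold higher with no overlap. The stress-induced TP53INP1 was at 17.97, 18.7 and 18.88 CPM in siTAF5, against 9.034, 9.571 and 9.434 CPM in siNT. XPC, which recognises damaged DNA, was at 78.98, 75.51 and 74.99 CPM in siTAF5, against 52.68, 51.23 and 50.54 CPM in siNT. PMAIP1, which encodes the death-promoting protein NOXA, went against the list, at 233.4, 248.4 and 230.7 CPM in siTAF5, against 362.8, 380.3 and 389.6 CPM in siNT. Counts by role were 7 higher and 1 lower of 12 for cell cycle and sensor genes, 5 and 1 of 8 for death genes, 8 and 0 of 9 for repair and redox genes and 3 and 0 of 4 for feedback genes. In the BCL2 family 3 rose (20%) and 5 fell (33.3%) of 15, beside 24.7% and 25% over all genes. The effectors BAX and BAK1 rose, while of the 8 BH3-only genes none rose and 3 fell, among them BAD at 26.48, 26.83 and 25.7 CPM in siTAF5, against 39.45, 35.42 and 35.65 CPM in siNT. MCL1, a short-lived survival factor, was at 226.5, 226.1 and 232.6 CPM in siTAF5, against 180.4, 184 and 182.9 CPM in siNT.

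Of 10 E2F and DP factors, a family with activators and repressors of cell cycle genes, 6 fell and 2 rose. The call of E2F5, one of those that rose and known mainly as a repressor, was lost with DESeq2 (adjusted p = 0.0761) and on leaving out any single library of the 6 other than siNT replicate 2. E2F1 was at 75.7, 74.58 and 72.35 CPM in siTAF5, against 104.9, 102.2 and 103.9 CPM in siNT, and E2F2 fell 1.29-fold. Mitosis genes gave 19 lower and 4 higher of 29, median log2 -0.13. AURKB, the kinase of the chromosomal passenger complex, was at 123.5, 121.3 and 119.7 CPM in siTAF5, against 171, 160 and 166.2 CPM in siNT. MYBL2, a transcription factor of G2 genes, fell 1.25-fold. Genes of DNA replication origins and forks were split, 18 higher (43.9%) and 13 lower (31.7%) of 41, beside 24.7% and 25% over all genes. In the MYC network 4 of 12 fell (33.3%) and 2 rose (16.7%). MYC was at 231.1, 222.3 and 210.7 CPM in siTAF5, against 256.7, 245.6 and 252 CPM in siNT. Counts of cells and cell cycle phases were not measured in these libraries.

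**Figure D3:**
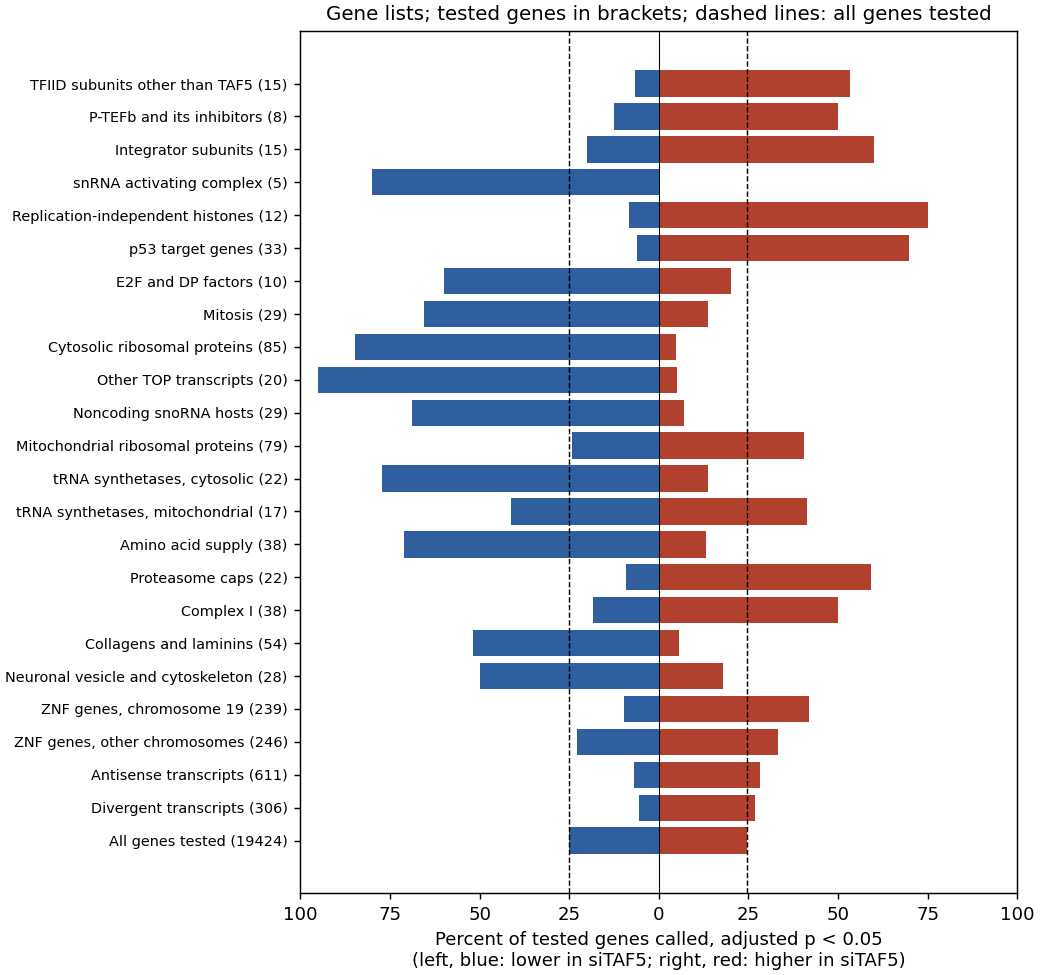
Percent of the tested genes of each list (number in brackets) higher in siTAF5 (red, to the right) and lower in siTAF5 (blue, to the left) at an adjusted p under 0.05, with dashed lines at the percentages of all genes tested. Ribosomal protein, other TOP, snoRNA host, cytosolic tRNA synthetase and amino acid supply lists reach far to the left of the dashed line, and p53 target, histone variant, Integrator and proteasome cap lists far to the right.

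Transcripts that carry a terminal oligopyrimidine (TOP) motif, a run of pyrimidines at the very 5' end by which growth signals control their translation, fell almost throughout. Cytosolic ribosomal protein genes gave 72 lower and 4 higher of 85, median log2 -0.22, and their summed level was 72620 to 74680 CPM in siTAF5 and 83700 to 87490 CPM in siNT. RPS23 was at 663.9, 641.8 and 661.3 CPM in siTAF5, against 962.4, 960.6 and 984.8 CPM in siNT. RPL27A was at 550.3, 554 and 555.2 CPM in siTAF5, against 773.1, 769 and 784.8 CPM in siNT. Ribosomal proteins have many pseudogene copies that could share reads. Of 127 such pseudogenes tested 21 fell (16.5%) and 6 rose (4.72%), both below the 25% and 24.7% of all genes. RPSAP58, a copy of RPSA, was at 54.63, 55.63 and 53.88 CPM in siTAF5, against 82.92, 81.69 and 81.01 CPM in siNT, the same direction as RPSA.

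The 20 TOP transcripts that do not encode ribosomal proteins all had groups without overlap. Groups were also without overlap for 57.3% of all genes tested, and for 3605 of 4856 in the highest quartile of level. Of the 20 TOP transcripts, 19 fell and 1 rose, median log2 -0.26. EEF1A1, the elongation factor that delivers tRNA and the most abundant transcript of the list, averaged 9628 ± 70.9 CPM in siTAF5 and 11490 ± 147 CPM in siNT (SD, n = 3 each). EEF1D, a subunit of the factor that recharges it with GTP, was at 139.8, 145 and 142 CPM in siTAF5, against 244.1, 240.7 and 243.9 CPM in siNT. NAP1L1, a histone chaperone, was at 563.9, 560.6 and 548.9 CPM in siTAF5, against 842, 865.4 and 889.1 CPM in siNT. Both EEF1D and NAP1L1 fell more than 1.5-fold. EIF2S3, the gamma subunit of initiation factor eIF2, was at 469.5, 467 and 468.2 CPM in siTAF5, against 636.1, 650.3 and 647 CPM in siNT. VIM, the intermediate filament gene vimentin, was the one that rose, at 1402, 1372 and 1343 CPM in siTAF5, against 1118, 1095 and 1067 CPM in siNT. The small falls of EEF1G and RACK1 did not pass with scaling by library totals only (edgeR adjusted p = 0.114 and 0.209), and that of RACK1 also not without siNT replicate 1.

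Translation factors as a whole gave 27 lower (49.1%) and 13 higher (23.6%) of 55, beside 25% and 24.7% over all genes. EIF2A, which can bring initiator tRNA to the ribosome outside eIF2, was at 55.05, 56.67 and 56.25 CPM in siTAF5, against 95.86, 97.48 and 99.91 CPM in siNT, a 1.75-fold fall. EIF4EBP2, a repressor of cap-dependent initiation, rose, at 262.4, 263.9 and 269.2 CPM in siTAF5, against 162.7, 164.8 and 161 CPM in siNT. EEF1A2, the neuron and muscle form of the elongation factor, was at 93.37, 91.44 and 87.18 CPM in siTAF5, against 172.2, 163.3 and 162.7 CPM in siNT. The initiation factor EIF1, which guards start codon choice, was at 297.5, 285.7 and 286.6 CPM in siTAF5, against 445.4, 439.2 and 451.9 CPM in siNT. None of these 4 genes had overlapping groups.

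Noncoding host genes of small nucleolar RNAs, which carry guide RNAs for ribosomal RNA modification in their introns, gave 20 lower and 2 higher of 29, median log2 -0.31, with 10 at least 1.5-fold lower. SNHG3 stood farthest out, at 18.71, 21.57 and 19.97 CPM in siTAF5, against 65.78, 65.46 and 65.35 CPM in siNT. SNHG32 was at 70.34, 70.48 and 68.99 CPM in siTAF5, against 131.9, 124.6 and 130.3 CPM in siNT, and SNHG4 at 18.48, 18.37 and 18.6 CPM in siTAF5, against 31.48, 33.09 and 33.35 CPM in siNT. All siTAF5 libraries were below all siNT libraries for these 3 hosts, a condition of the naming rule for at least SNHG3. SNHG29 averaged 270.1 ± 3.42 CPM in siTAF5 and 454.8 ± 11.5 CPM in siNT (SD, n = 3 each), and SNHG16 and DANCR also fell, by log2 changes of -0.68 and -0.75. Spliced host RNA was measured, and the small nucleolar RNAs themselves were not.

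The hexamer CTTTCC, a short pyrimidine run with a C as in TOP starts, was searched from 10 bases before to 10 after the annotated start on the gene's strand. It was in 166 of 12597 promoters (1.32%), of which 74 genes were lower (44.6%) and 37 higher (22.3%), with a median log2 change of -0.06. Over all 12597, 28.9% were lower and 27.7% higher. Of the 166, 15 were ribosomal protein genes, 14 lower and 0 higher. The other 151 gave 60 lower (39.7%) and 37 higher (24.5%), median -0.02. Stretches from 60 bases before to 30 after the start are shown for 3 genes outside the ribosome that hold it and fell, chosen after their values were seen, with CTTTCC in capitals: EIF2A (chr3:150546727-150546816, plus strand), CRTAP (chr3:33113954-33114043, plus strand) and SNHG4 (chr5:139274041-139274130, plus strand).
EIF2A: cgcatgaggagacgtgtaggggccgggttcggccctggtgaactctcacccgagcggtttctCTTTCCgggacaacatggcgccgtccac
CRTAP: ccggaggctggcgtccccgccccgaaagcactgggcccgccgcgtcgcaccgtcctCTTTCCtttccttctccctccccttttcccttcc
SNHG4: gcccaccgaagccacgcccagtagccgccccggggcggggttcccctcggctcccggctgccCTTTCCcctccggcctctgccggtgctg

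Transcripts for amino acid supply fell with them, 27 lower and 5 higher of 38, median log2 -0.29, including 9 of 10 transporters. ATF4, the transcription factor of the amino acid response, was at 463.2, 457.3 and 440.7 CPM in siTAF5, against 682, 657.7 and 672.7 CPM in siNT. ASNS, asparagine synthetase and an ATF4 target, was at 165.8, 164.5 and 163.2 CPM in siTAF5, against 282.9, 280.9 and 290.1 CPM in siNT. The amino acid exchanger SLC7A5 was at 112.5, 110.5 and 109.4 CPM in siTAF5, against 147.4, 142.8 and 144.6 CPM in siNT. Each of these had separate groups. Cytosolic tRNA synthetases gave 17 lower and 3 higher of 22, median log2 -0.24, whereas the mitochondrial synthetases gave 7 and 7 of 17. The difference between the 2 sets was not tested. YARS1, for tyrosine, was at 257.6, 256 and 252.7 CPM in siTAF5, against 340.5, 333.8 and 344.1 CPM in siNT.

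The octamer TGATGCAA, which matches a common form of the composite site bound by C/EBP and ATF4 proteins, was in 62 of the 12597 promoter windows (0.492%), searched over 250 bases before to 50 after the start on both strands. Of these genes 32 were lower (51.6%) and 8 higher (12.9%), beside 28.9% lower and 27.7% higher over all 12597. Their median log2 change was -0.16. Windows of 60 bases are shown for genes with the octamer that fell, IARS1 for isoleucine tRNA charging (chr9:92293681-92293740, minus strand) and RPS23 of the small ribosomal subunit (chr5:82278456-82278515, minus strand), with the octamer or its reverse complement in capitals, chosen after their values were seen.
IARS1: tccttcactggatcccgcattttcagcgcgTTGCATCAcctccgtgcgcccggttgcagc
RPS23: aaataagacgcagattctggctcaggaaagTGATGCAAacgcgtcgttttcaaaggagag

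IARS1 was at 413.2, 414.9 and 424.4 CPM in siTAF5, against 507.6, 518.9 and 528.5 CPM in siNT, with no overlap. Other boxes were searched in the same windows, on both strands. CCAAT was in 4584 windows, with 29.5% of genes higher and 28.1% lower, and the GC box core GGGCGG in 8674, with 28.3% and 30.1%. The cyclic AMP element TGACGTCA was in 402 windows, with 27.9% higher and 27.1% lower, and the E-box CACGTG in 1224, with 31.8% and 27.6%.

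Mitochondrial ribosomal proteins did not follow the cytosolic ones, with 32 higher and 19 lower of 79, median log2 0.06. MRPL57 was at 58.95, 57.88 and 58.39 CPM in siTAF5, against 39.58, 39.99 and 40.9 CPM in siNT. MRPL48 was at 15.09, 15.34 and 15.63 CPM in siTAF5, against 26.38, 25.51 and 26.05 CPM in siNT. MRPL57 rose 1.45-fold and MRPL48 fell 1.69-fold. Complex I of the respiratory chain had 19 nuclear-encoded genes higher and 7 lower of 38, median 0.07, led by NDUFB10 at 229.9, 223.2 and 226.3 CPM in siTAF5, against 169.8, 163.5 and 165.5 CPM in siNT. Complexes II to V were split, 15 higher (34.1%) and 13 lower (29.5%) of 44, beside 24.7% and 25% over all genes. The 13 genes of the mitochondrial genome gave 10 lower and 0 higher, and the calls of MT-CO1, MT-CO3, MT-CYB, MT-ND3 and MT-ND4L were lost without siNT replicate 3. MT-CO1 was at 3264, 3000 and 3084 CPM in siTAF5, against 3418, 3198 and 3960 CPM in siNT, so the groups overlapped. The ADP/ATP carriers of the inner membrane diverged. SLC25A4 rose, at 72.64, 70.68 and 72.41 CPM in siTAF5, against 46.83, 47.29 and 47.94 CPM in siNT. SLC25A6 fell, at 432.2, 414.6 and 407.3 CPM in siTAF5, against 698.4, 658.2 and 658.9 CPM in siNT, and SLC25A5 fell 1.27-fold.

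Proteasome caps, the particles that admit substrates to the proteolytic core, had 13 of 22 genes higher and 2 lower, median log2 0.12. PSME3, a nuclear cap, was at 246.9, 246.5 and 250.2 CPM in siTAF5, against 194.9, 193.7 and 196.3 CPM in siNT. PSME1, part of the interferon-inducible cap, fell, at 67.1, 66.44 and 68.72 CPM in siTAF5, against 86.97, 88.65 and 90.89 CPM in siNT. The 17 genes of the 20S core gave 4 higher and 4 lower, 23.5% each, near the 24.7% and 25% of all genes. Endoplasmic reticulum chaperones gave 10 higher (58.8%) and 4 lower (23.5%) of 17. Heat shock chaperones gave 7 (29.2%) and 6 (25%) of 24, near the shares of all genes. Core spliceosome genes gave 13 higher and 11 lower of 33, an order that turned with upper-quartile scaling (10 higher and 12 lower). PRPF8, the central spliceosome protein, was at 730.6, 733.9 and 737.5 CPM in siTAF5, against 933.9, 932.8 and 910.2 CPM in siNT.

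Collagens and laminins gave 28 lower and 3 higher of 54, median log2 -0.18. COL2A1, the cartilage collagen, was at 94.72, 91.67 and 88.39 CPM in siTAF5, against 137.4, 132.8 and 134.5 CPM in siNT. COL1A1, one of the fibroblast markers, was at 8.026, 7.865 and 8.772 CPM in siTAF5, against 13.69, 13.9 and 13.56 CPM in siNT. The summed fibroblast markers, given above, moved with this list, but the 2 lists share genes. COL1A1 alone made up most of the marker sum in both groups, and the part of the other markers was not tested. COL4A5 of basement membranes rose, at 57.12, 62.53 and 59.42 CPM in siTAF5, against 45.34, 44.68 and 46.22 CPM in siNT. Cadherins and protocadherins were split, 14 higher (29.2%) and 9 lower (18.8%) of 48, beside 24.7% and 25% over all genes. PCDH19 was at 11.84, 11.74 and 12.97 CPM in siTAF5, against 28.3, 29.47 and 29.51 CPM in siNT. Neuronal vesicle and cytoskeleton genes gave 14 lower and 5 higher of 28, and RAB3A, a GTPase of secretory vesicles, was at 4.237, 3.589 and 4 CPM in siTAF5, against 9.31, 9.091 and 8.505 CPM in siNT. Tubulins gave 8 lower (38.1%) and 5 higher (23.8%) of 21, and 5 lower and 6 higher with scaling by library totals only. TUBB4B rose, at 1.33-fold, while TUBB fell 1.25-fold.

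Lists of signalling targets gave mixed counts. Of 26 immediate early genes 8 rose (30.8%) and 5 fell (19.2%), beside 24.7% and 25% over all genes, with a median log2 change of -0.04. The AP-1 genes JUN, JUNB and JUND were among those that rose. JUN was at 620.2, 614 and 597 CPM in siTAF5, against 481.1, 453.6 and 452.4 CPM in siNT, and JUND at 200.1, 180.4 and 182.9 CPM in siTAF5, against 139.2, 117.3 and 112.9 CPM in siNT. The nuclear receptor NR4A1 fell, at 21.4, 19.65 and 21.02 CPM in siTAF5, against 31.63, 29.62 and 28.95 CPM in siNT. Targets of the oxidative stress factor NRF2 were split, 6 higher and 6 lower of 17 (35.3% each). NQO1 and HMOX1 rose 1.65- and 1.41-fold, while the pentose phosphate genes PGD and TKT fell 1.25- and 1.23-fold. NOTCH and WNT feedback genes gave 8 lower and 2 higher of 18, with the NOTCH effector HEY1 at 19.71, 18.65 and 18.09 CPM in siTAF5, against 27.41, 27.32 and 26.46 CPM in siNT. Targets of YAP gave 5 lower (33.3%) and 1 higher (6.67%) of 15, and BMP and ID genes 8 lower (42.1%) and 5 higher (26.3%) of 19. Interferon-stimulated genes gave 11 lower and 4 higher of 29, with BST2, a tether of budding viruses, at 3.3, 3.519 and 3.316 CPM in siTAF5, against 8.169, 7.752 and 8.717 CPM in siNT.

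HOX genes, the positional transcription factors in 4 clusters, gave 9 higher and 7 lower of 38, or 23.7% and 18.4%, near the shares of all genes tested. Of the tested HOXA genes 5 fell and 2 rose of 11, HOXB genes gave 1 higher and 2 lower of 9, while of the HOXC genes 4 rose and none fell of 9 and of the HOXD genes 2 rose and none fell of 9. HOXA13 was at 73.04, 72.72 and 71.65 CPM in siTAF5, against 109.6, 119.1 and 114.1 CPM in siNT, a 1.58-fold fall. HOXA11 and HOXA10, its neighbours in the cluster, fell 1.58- and 1.35-fold. The difference between clusters was not tested. Zinc finger genes named ZNF on chromosome 19, which lie there in large clusters, gave 100 higher and 23 lower of 239, median log2 0.13. Those on other chromosomes gave 82 higher and 56 lower of 246, median 0.04. The remaining 1146 genes of chromosome 19 gave 227 higher and 352 lower, the opposite order. ZNF425, on chromosome 7, was at 11.43, 10.24 and 11.37 CPM in siTAF5, against 3.165, 3.488 and 3.079 CPM in siNT.

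Long noncoding RNAs differed from protein-coding genes in direction. Of 3306 tested lncRNA genes 20.5% were higher and 7.71% lower, with a median log2 change of 0.14, while of 14637 protein-coding genes 27% were higher and 30.5% lower, median -0.02. Levels differ between these classes, so the shares were also set side by side within 4 quartiles of mean level over all tested genes. In the lowest quartile, 12.6% of 2133 lncRNA genes were at least 1.5-fold higher and 3.38% as much lower, beside 6.67% and 12.1% of 1798 protein-coding genes. In the next quartile the lncRNA shares were 14.3% and 3.24% of 1051, beside 4.68% and 8.87% of 3336 protein-coding genes. The upper quartiles held 99 and 23 lncRNA genes, and there 5.05% and 8.7% were as much higher and 7.07% and 21.7% as much lower. The summed level of lncRNA was 11378, 11266 and 11696 CPM in siTAF5, against 12246, 12410 and 12717 CPM in siNT, and without XIST it was 10194, 10042 and 10433 CPM in siTAF5, against 10091, 10121 and 10251 CPM in siNT. Of the lncRNA genes that rose, 282 were in the lowest quartile and 354 in the next.

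**Figure D4:**
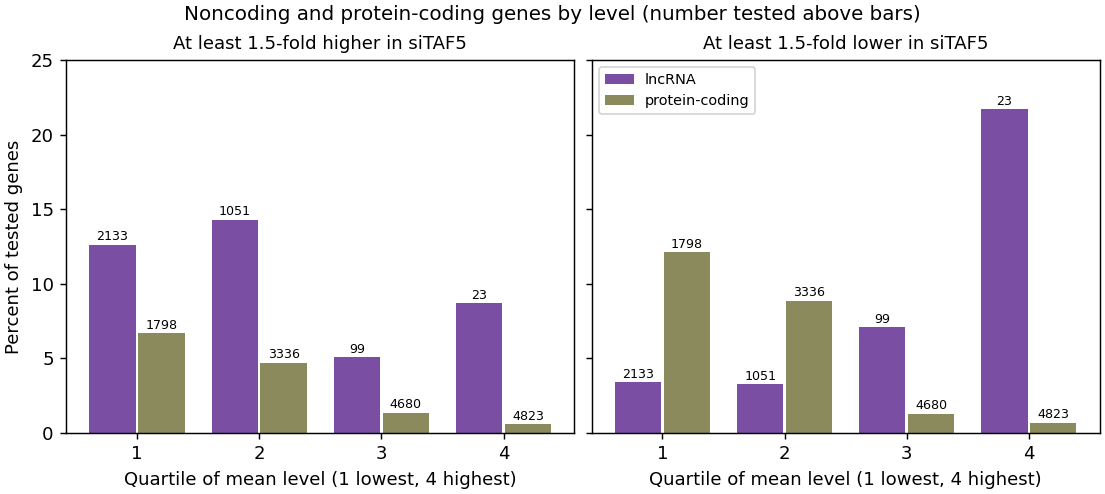
Percent of tested lncRNA genes (purple) and protein-coding genes (olive) that were at least 1.5-fold higher (left panel) or lower (right panel) in siTAF5 at an adjusted p under 0.05, by quartile of mean level over the 12 libraries, with the number tested above each bar. In the 2 lowest quartiles the purple bars (12.6% and 14.3%) exceed the olive ones (6.67% and 4.68%) on the left and fall short of them on the right.

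Nuclear noncoding RNAs NEAT1 and TUG1 rose, while XIST, which coats the inactive X chromosome, fell. NEAT1, the scaffold RNA of paraspeckles, was at 127.8, 135.1 and 140.9 CPM in siTAF5, against 44.34, 52.48 and 51.52 CPM in siNT, a 2.72-fold rise. TUG1 averaged 179.8 ± 4.38 CPM in siTAF5 and 125 ± 5.47 CPM in siNT (SD, n = 3 each), and rose 1.44-fold. Of 5 nuclear noncoding RNAs, a list that does not hold XIST, 4 rose and none fell, and of 8 paraspeckle proteins 4 rose and 2 fell. Intergenic transcripts with LINC names gave 41 higher (15.2%) and 35 lower (13%) of 270, both below the 24.7% and 25% of all genes. OLMALINC, among the largest falls, was at 27.65, 26.09 and 25.47 CPM in siTAF5, against 49.46, 48.2 and 51.16 CPM in siNT.

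Transcripts named as antisense or divergent to another gene seldom fell, and rises of at least 1.5-fold were frequent among them. Antisense transcripts gave 173 higher (28.3%) and 42 lower (6.87%) of 611, median log2 0.20. By at least 1.5-fold, 96 (15.7%) were higher and 14 (2.29%) lower. Divergent transcripts, which start from the same promoter region in the other direction, gave 82 higher (26.8%) and 17 lower (5.56%) of 306, median 0.28. Of these, 55 (18%) rose and 5 (1.63%) fell by at least 1.5-fold. Over all genes tested 24.7% were higher and 25% lower, 4.53% and 3.95% by at least 1.5-fold. Unnamed lncRNA genes gave 17.8% higher and 5.95% lower, 12.3% and 3.27% by at least 1.5-fold. PSMG3-AS1 was at 8.558, 8.938 and 9.386 CPM in siTAF5, against 3.165, 3.075 and 3.291 CPM in siNT, and ZBTB11-AS1 at 8.069, 7.566 and 7.614 CPM in siTAF5, against 2.833, 3.273 and 3.601 CPM in siNT. The divergent PDCD6IP-DT was at 2.725, 3.132 and 2.755 CPM in siTAF5, against 0.9016, 1.107 and 1.303 CPM in siNT. These 3 had no overlap between the groups, which for PSMG3-AS1 and ZBTB11-AS1 was a condition of naming them. The kit keeps strand, but whether the counting used it is not stated in the sources at hand, so reads of overlapping partners cannot be told apart.

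The partners, the genes that these transcripts are named after, did not move the same way as a group. The 164 antisense transcripts that rose and had a tested partner were paired with 54 partners higher and 46 lower, with a median partner change of 0.01. Over all 566 antisense pairs the counts were 158 and 178. The 82 divergent transcripts that rose had 33 partners higher and 17 lower, median 0.06, and over all 305 divergent pairs the counts were 104 and 77. All partners of the transcripts that rose lay on the opposite strand.

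**Figure D5:**
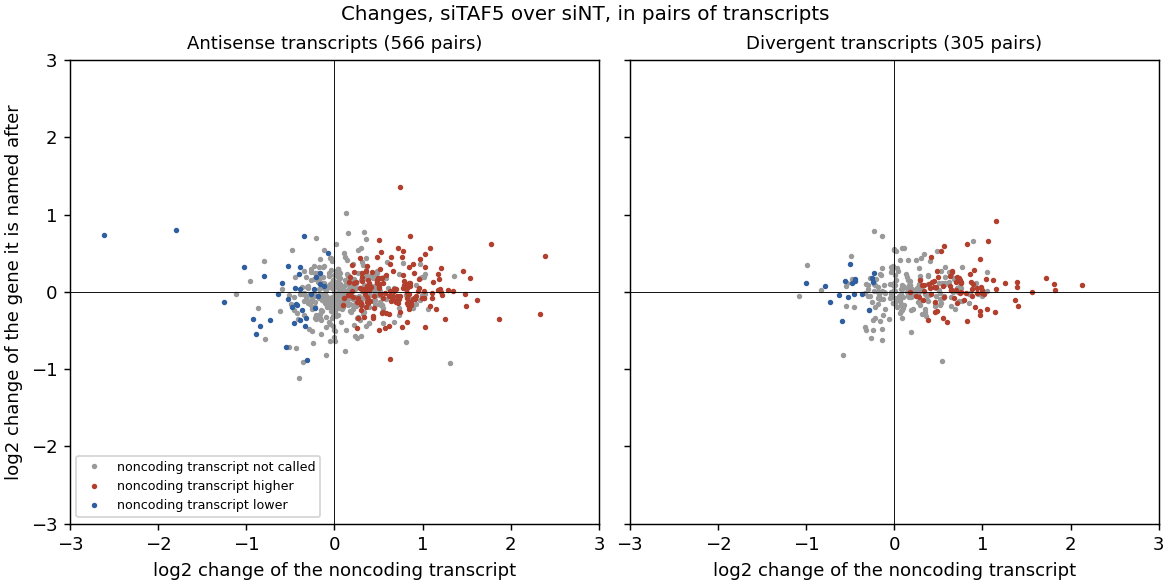
log2 change, siTAF5 over siNT, of a noncoding transcript (horizontal axis) and of the gene it is named after (vertical axis) in 566 antisense pairs (left) and 305 divergent pairs (right), coloured by the call of the noncoding transcript. Red points, transcripts that rose, spread along the horizontal axis while their partners lie on both sides of 0.

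Genes with an ETS or a YY1 promoter motif rose more often than they fell, mostly by small amounts. CCGGAAGT, the core bound by ETS family factors, was in 1007 of the 12597 windows (7.99%), searched on both strands. Of those genes 430 were higher (42.7%) and 228 lower (22.6%), beside 27.7% higher and 28.9% lower over all 12597. Their median log2 change was 0.07. By at least 1.5-fold, 3.77% were higher and 1.09% lower, beside 3.26% and 3.75% over all 12597. The start-site motif AAGATGGCG, bound by YY1, was in 443 windows (3.52%), with 188 genes higher (42.4%) and 107 lower (24.2%). Their median was 0.07, and by at least 1.5-fold 2.48% were higher and 0.677% lower. GCGCATGC, a form of the site bound by NRF1, was in 648 windows (5.14%), with 235 higher (36.3%) and 172 lower (26.5%). A window can hold more than one of these motifs. A match is a description of the letters and not of binding. Windows of 60 bases are shown for 3 genes with CCGGAAGT that rose, chosen after their values were seen, with the motif or its reverse complement in capitals: TAF12 (chr1:28643064-28643123, minus strand), PSMG3-AS1 (chr7:1569995-1570054, plus strand) and PDCD6IP-DT (chr3:33798559-33798618, minus strand).
TAF12: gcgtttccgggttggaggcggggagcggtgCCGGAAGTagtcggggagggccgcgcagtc
PSMG3-AS1: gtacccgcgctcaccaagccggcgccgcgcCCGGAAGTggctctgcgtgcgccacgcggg
PDCD6IP-DT: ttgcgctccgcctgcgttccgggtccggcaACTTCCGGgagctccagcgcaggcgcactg

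Some neighbours of the leading genes were called in the same direction and others were not. SNHG3, which fell, and TAF12, which rose, lie 76.9 kb apart on chromosome 1. Of 8 genes tested in that stretch, both included, 3 were higher and 3 lower. TRNAU1AP rose with a log2 change of 0.31 and the host gene SNHG12 changed by -0.24, while TAF12-DT, divergent from TAF12, changed by 1.15. SNHG3 (chr1:28505980-28510892, plus strand) lies inside RCC1 (chr1:28505943-28539300, same strand), so their reads can be shared. RCC1, the nucleotide exchange factor of Ran, changed by -0.12, against -1.70 for SNHG3. On chromosome 10, UROS (chr10:125784980-125823258, minus strand) has its start side 288 bases from BCCIP, which lies on the other strand. UROS rose 2.09-fold, while BCCIP changed by log2 -0.0021 (edgeR adjusted p = 0.962). CRTAP on chromosome 3 (chr3:33114014-33147773) fell, while its neighbour SUSD5 changed by 0.09. HEXIM2, next to HEXIM1 on chromosome 17 and a second inhibitor of P-TEFb, changed by 0.54.

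Calls were also counted by broad gene properties. Among protein-coding genes, 28.1% with 1 exon were higher and 19.2% lower, beside 28% and 31.1% of those with 10 or more exons. Across quartiles of gene span, 25% to 29.1% were higher and 29.6% to 32.2% lower. By level the shares differed more. In the lowest quartile of protein-coding genes 12.1% were higher and 22.7% lower, beside 34% and 34.6% in the highest quartile, where counts are deepest. By chromosome, the share higher ran between 18.8% (chromosome X) and 27.8% (chromosome 14), leaving out the mitochondrial genome.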

How the data were processed

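Poly(A) RNA was sequenced with a stranded kit, per the labels' protocols. The values deposited by the authors are expected counts, that is estimated counts of reads per gene, of which 46.5% are not whole. Totals of the 12 libraries ran from 41.8 to 62.45 M, so the values had not been scaled to one total. Per the submitters' processing notes, the build was hg38 and the tools included STAR 2.7.0f, cutadapt 1.18, DESeq2 and Partek 10.0.23.0531, without roles. How genes were quantified, on which annotation and with which strand setting is not stated there. Values were rounded, which moved a library total by at most 91.27 counts, and used in the count model planned for whole counts.

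With R 4.3.3 and edgeR 4.0.16, genes passing filterByExpr (minimum count 10) were scaled by trimmed means of M values and fitted in a quasi-likelihood model of 12 libraries with 4 group means. The contrast siTAF5 minus siNT was tested (two-sided), and p-values were adjusted by Benjamini-Hochberg over the 19424 genes, with a threshold of 0.05. Adjusted p-values in the report come from this fit. On simulated counts with 200 genes changed, as many up as down, 99% of those changed by log2 1 were recovered. Far more genes were called in the libraries and most changes were smaller, so this does not measure recovery of such changes. Without a spike-in, each change is relative to the other genes.

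Genes were named by a rule: the targeted gene and its paralog, the 24 largest log2 changes each way (average log2 CPM at least 2, no overlap), the 12 largest CPM changes each way, the 8 largest lncRNA changes each way, the 5 members of each list with the smallest adjusted p or all members of lists of at most 20, and neighbours within 100 kb. The largest changes, in log2 or in CPM, were taken from called genes without overlap, so separate groups in those genes follow from the rule. Lists were described by counts and medians, without a test. The comparison, lists and rule were chosen with earlier results of these data known. Alternatives were DESeq2 1.42.0, other scalings, no filter, 6 libraries only, a replicate term, a threshold of 0.01 and leaving out each library.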

Additional observations from a re-analysis of the deposited data

How the results depend on the processing

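The counts of genes called stayed within 1.5 times and TAF5 stayed called under all 14 alternatives. Leaving out each library in turn gave 4007 to 4462 genes higher and 4441 to 4812 lower, 759 to 836 and 705 to 798 of them by at least 1.5-fold, and a TAF5 log2 change of -2.65 to -2.52. Scaling by library totals only gave 5662 higher and 4140 lower, upper-quartile factors 4459 and 5254, and DESeq2 4245 and 4447 with 377 genes without an adjusted p. With a replicate block the counts were 4877 and 4910 (876 and 750 by at least 1.5-fold) and the TAF5 change -2.57; same-numbered libraries had deviations that correlated by 0.050, 0.010 and 0.023, so the numbers were not taken to pair them. Of 6005 values of 429 named genes under these alternatives, 0 reversed, 132 lost and 51 gained a call, in 55 genes. TAF2 lost its call in most alternatives. List medians changed sign in 9 of 46 lists, all with medians near 0, such as complexes II to V (0.01, and -0.02 without siTAF5 replicate 1). Low levels limit the calls: in the lowest quartile of level 9.78% of genes were higher and 7.08% lower, against 34.2% and 33.9% in the highest.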
